A study of Mus musculus with 6 samples.

Results

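Arginine tRNA fragments were followed in brain of mice of the inbred strain C57BL/6, with 3 libraries from animals aged 22 months and 3 from animals aged 3 months. The labels name the tissue as brain, with no region, and do not say whether the replicates were separate animals, so p-values measure only the spread between these libraries, which may be technical. The values are counts of sequenced tags per tRNA-derived small RNA (tDR), each with its own ID, in small RNA libraries. A fragment was taken as arginine when every tRNA it is listed under reads arginine and at least 1 of those names is a mature tRNA. This gave 15 of the 591 IDs in the table: 10 of Arg-CCT, 3 of Arg-ACG, 1 of Arg-TCG and 1 shared between Arg-CCG and Arg-TCG. No member lies under an Arg-TCT tRNA. Another 9 IDs are listed under arginine precursors only and are not members, and 0 are shared with another amino acid. The study examined how the tRNA fragment pattern of the brain differs with age.

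Transfer RNAs carry amino acids to the ribosome, and tRNAs that bring the same amino acid with different anticodons are called isoacceptors. Arginine has several, because many codons spell it: Arg-CCT reads AGG, Arg-TCT reads AGA, and Arg-ACG, Arg-TCG and Arg-CCG read the codons that begin with CG. Gene copies of the same anticodon with small differences in the body of the tRNA are called isodecoders, such as Arg-CCT-1 to Arg-CCT-4. Nucleases such as angiogenin, which cuts in the anticodon loop, and Dicer turn tRNAs into small RNAs, and those from the 3′ end of a mature tRNA carry the CCA tail that is added after transcription.

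The isodecoders of Arg-CCT, the anticodon that gave most of the members, are shown because their differences fix which fragments can be told apart. Sequences are from the deposited table, 5′ to 3′, and capitals mark the positions at which these mature tRNAs differ.
Arg-CCT-1-1: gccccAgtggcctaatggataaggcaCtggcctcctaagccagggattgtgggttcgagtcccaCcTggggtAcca
Arg-CCT-2-1: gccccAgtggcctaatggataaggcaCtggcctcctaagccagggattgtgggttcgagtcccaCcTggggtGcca
Arg-CCT-3-1: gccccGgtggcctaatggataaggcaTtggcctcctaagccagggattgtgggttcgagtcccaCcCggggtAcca
Arg-CCT-4-1: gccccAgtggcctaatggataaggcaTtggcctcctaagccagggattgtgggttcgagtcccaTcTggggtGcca
Each is 76 nt long with the CCA tail, and the anticodon lies at positions 34 to 36, counted from the 5′ end. From Arg-CCT-1-1 to Arg-CCT-3-1 the differences are A6G, C27T and T67C, from Arg-CCT-1-1 to Arg-CCT-4-1 they are C27T, C65T and A73G, and Arg-CCT-2-1 differs from Arg-CCT-1-1 by A73G only. Arg-CCT-2-2 is identical to Arg-CCT-2-1.

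RefSeq lists 5 Arg-CCT genes in GRCm38.p6, the assembly behind mm10, and the members name 5 mature Arg-CCT tRNAs, but the numbering of the gene symbols was not matched to the isodecoder names. They are n-TRcct1 at chr6:38533931-38534003, n-TRcct2 at chr17:23548768-23548840, n-TRcct3 at chr11:115413304-115413376, n-TRcct4 at chrX:111377217-111377289 and n-TRcct5 at chr11:115412981-115413053. In GENCODE M21, n-TRcct1 lies in an intron of Fmc1, and the others overlap no annotated gene. Each gene spans 73 nt, the length of the mature tRNA without its CCA tail.

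Sequences in the table are those of parent tRNAs and not of fragments, so a fragment's place could only be bounded by what its parents share. The 10 Arg-CCT IDs fall into 3 parent sets: 5 IDs under Arg-CCT-1 and Arg-CCT-2, 3 IDs under Arg-CCT-3 and Arg-CCT-4, and 2 IDs under all of them. The stretches of 15 nt or more common to all names of a set are shown here with the anticodon in capitals where it is inside.
Arg-CCT-3 and Arg-CCT-4, positions 7 to 64: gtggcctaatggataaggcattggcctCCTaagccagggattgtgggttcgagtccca
All Arg-CCT, positions 7 to 26: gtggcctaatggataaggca
All Arg-CCT, positions 28 to 64: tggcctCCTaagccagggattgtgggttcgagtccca
Arg-ACG-1 and Arg-ACG-3, positions 51 to 76: aggttcgactcctggctggctcgcca
For Arg-CCT-3 and Arg-CCT-4, every run of 15 nt or more that sets the pair apart from all other names in the table includes position 27, the C27T difference. The stretch common to Arg-CCT-1 and Arg-CCT-2 covers positions 1 to 72. None of the 5 IDs under Arg-CCT-3 and Arg-CCT-4 or under all Arg-CCT names has a shared stretch that reaches base 1, on the reading that fragments match their parents without mismatch, which the sources used here do not state.

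The members outside Arg-CCT were bounded in the same way. The 3 Arg-ACG IDs are listed under 5 mature Arg-ACG names and no precursor. A second stretch that these names share, positions 1 to 49, also occurs in other names of the table, so a fragment inside it would have more parents than are listed. Every run of 15 nt or more within positions 51 to 76 that is absent from other names includes positions 62 to 74, and so reaches the first base of the CCA tail. The ID of Arg-TCG-2, Arg-TCG-3 and Arg-TCG-4 is bounded to positions 17 to 58, with positions 34 to 50 in every run that sets it apart. The ID shared by Arg-CCG and Arg-TCG lies in positions 6 to 31, before the anticodon.

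**Figure D1:**
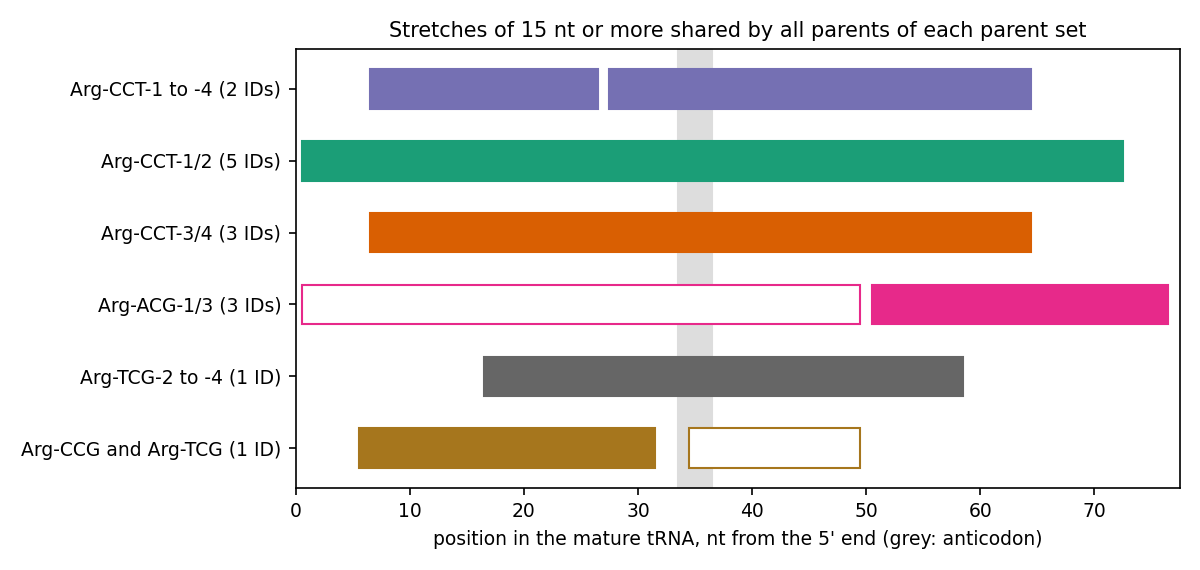
Stretches of 15 nt or more shared by all parents of each parent set (bars, rows by parent set) along the mature tRNA in nt from its 5′ end. Filled bars hold a run that occurs in no other name of the table and open bars do not, and only the Arg-ACG bar from 51 to 76 reaches the 3′ end.

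Listed tags summed to between 71121 and 96130 per library at 22 months and to between 44156 and 57425 at 3 months, and no library lists a value above 0 that is under a minimum of 177 to 204 CPM (tags relative to the library's listed total). A 0 therefore does not tell an absent fragment from a level below that minimum, and every level is a part of the tRNA fragments listed. The library of 22 month replicate 3 stood apart: over all IDs its Spearman correlation was 0.749 and 0.824 with the other libraries of its age, which correlated at 0.908 with each other, against 0.870 to 0.916 within the 3 month group. It alone was at 0 for 53 of the 439 IDs tested (12.1%) and for 4 of the 10 members tested. The columns, named Age and WT, were read as 22 and 3 months. The table names tRNAs only, so 0 of 7 miRNA markers of brain cells could be looked up and the tissue label was not checked.

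Arginine fragments were a small part of the listed tags and a smaller one at 22 months. The 15 members took 1.13% (95% Wilson interval 1.05 to 1.21), 0.955% (0.895 to 1.02) and 0.484% (0.439 to 0.532) of listed tags in replicates 1, 2 and 3 at 22 months, against 1.69% (1.59 to 1.80), 1.43% (1.32 to 1.54) and 1.79% (1.67 to 1.92) at 3 months. The intervals cover counting error only. The 22 month mean was 0.855% ± 0.333 and the 3 month mean 1.64% ± 0.185 (SD, n = 3 each), and the ages did not overlap. Without 22 month replicate 3, the lowest of the 6, the mean at 22 months was 1.04%. In whole tissue, fewer cells of a type and less of the RNA per cell cannot be told apart, and each share is relative to the tags of all other listed tRNAs.

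Nearly all member tags were of Arg-CCT. In 22 month replicate 3 and 3 month replicate 2 every member tag was, and the Arg-ACG, Arg-TCG and Arg-CCG members were at 0 there. Fragments under Arg-CCT-1 and Arg-CCT-2 took 32.9% ± 4.93 of the member tags at 22 months and 26.8% ± 3.22 at 3 months, those under Arg-CCT-3 and Arg-CCT-4 took 32.5% ± 2.19 and 29.2% ± 3.70, and those under all Arg-CCT names took 33.3% ± 5.87 and 40.9% ± 4.87 (SD, n = 3 each). The ages overlapped in all 3 shares.

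**Figure D2:**
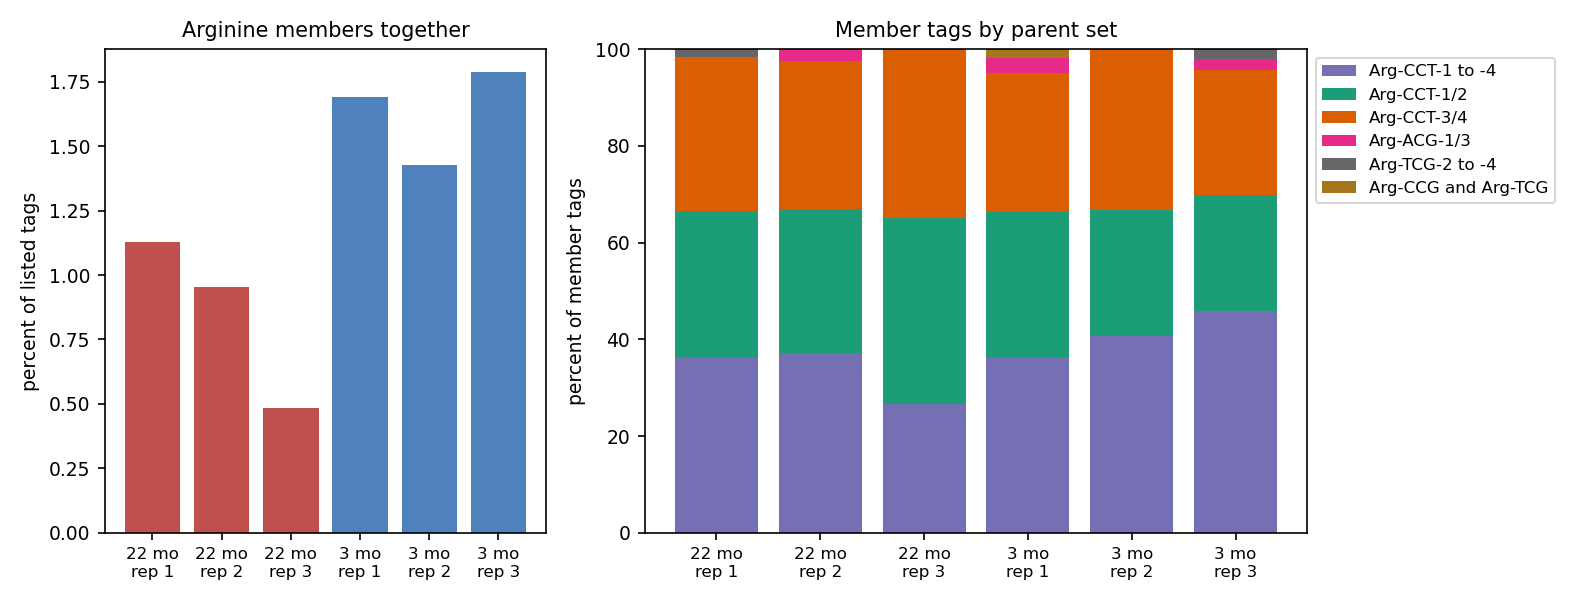
Left, share of listed tags taken by the 15 arginine members in each library (percent), with the 22 month libraries, 0.484% to 1.13%, all below the 3 month libraries, 1.43% to 1.79%. Right, member tags divided by parent set (percent of member tags), nearly all of Arg-CCT in each of the 6 libraries.

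Of the 15 members, 10 passed the filter on low counts and were tested, all of Arg-CCT. Of these, 0 rose and 0 fell (quasi-likelihood test of edgeR, adjusted p under 0.05 by Benjamini-Hochberg over 439 IDs), where 4.78% of all tested IDs rose and 1.82% fell. Without adjustment, 1 member, AS-tDR-001596, was below 0.05 and lower at 22 months, against 9.79% of all tested IDs. The same ID passed as lower with DESeq2 after adjustment (adjusted p = 0.0375), in a fit in which 38 of 439 IDs passed as lower. Its adjusted p ranged up to 0.353 over the 15 alternatives tried. With limma-voom 0 members passed, where 20 of 439 IDs passed as lower. All 10 log2 differences between 22 and 3 months were negative, as were 57.4% of all tested, with a median of -0.64 beside -0.16 over all tested IDs. The 6 members above 0 in every library had a median of -0.26, beside -0.04 for all 290 such IDs. In 6 of the 10 the 22 month libraries all lay below the 3 month libraries, as in 20.0% of all tested IDs, and 4 of these 6 were at 0 in 22 month replicate 3. The fragments overlap in sequence and share the same libraries, so they are not independent.

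The most abundant member was AS-tDR-001596, listed under all Arg-CCT names. It was at 3304, 3415 and 1516 CPM in 22 month replicates 1, 2 and 3, against 4778, 4679 and 6432 CPM at 3 months (CPM scaled by the trimmed mean of M-values, TMM). Every 22 month library lay below every 3 month library, with replicate 3 the lowest. The means were 2745 ± 1066 CPM at 22 months and 5296 ± 985 CPM at 3 months (SD, n = 3 each), which gives a log2 difference of -0.95 (SE 0.35), not past the threshold (edgeR adjusted p = 0.152). Without 22 month replicate 3 the log2 difference was -0.59 (edgeR adjusted p = 0.174). This ID alone made up 29.2% ± 2.24 of member tags at 22 months and 34.4% ± 4.29 at 3 months. The ages nearly met, at 30.55% in 22 month replicate 1 and 30.79% in 3 month replicate 1. The other ID under all Arg-CCT names, AS-tDR-008237, was at 607, 771 and 0 CPM in 22 month replicates 1, 2 and 3 and at 831, 1045 and 1103 CPM at 3 months. Its log2 difference was -1.10 (SE 1.11, edgeR adjusted p = 0.607), and -0.45 without the library at 0 (adjusted p = 0.277).

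Among the 5 IDs under Arg-CCT-1 and Arg-CCT-2, the most abundant differed little between the ages. AS-tDR-010803 was at 1335, 1469 and 890 CPM at 22 months, against 1774, 1175 and 999 CPM at 3 months, and the groups overlapped (log2 difference -0.10, SE 0.31, edgeR adjusted p = 0.867). Its log2 difference was 0.14 without 22 month replicate 3 and 0.18 without 3 month replicate 1. AS-tDR-001612 was at 1106, 1028 and 1001 CPM at 22 months and 1183, 1023 and 1353 CPM at 3 months. Here 22 month replicate 3 was level with the other libraries of its age, unlike for AS-tDR-001596, and the log2 difference was -0.18 (SE 0.19, edgeR adjusted p = 0.612). AS-tDR-012671 was the lowest of the tested members by its mean over the 6 libraries, with 16, 18 and 22 tags at 22 months and 17, 14 and 15 tags at 3 months (log2 difference -0.26, SE 0.50, edgeR adjusted p = 0.768).

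The other members of the Arg-CCT-1 and Arg-CCT-2 set were at 0 in 22 month replicate 3. AS-tDR-001600 had the lowest log2 difference of the tested members. It was at 216, 282 and 0 CPM at 22 months, against 847, 566 and 687 CPM at 3 months, so the groups did not overlap, and its 16 and 23 tags in the first libraries at 22 months lay just above their listing minimums of 13 and 17 tags. The log2 difference was -2.06 (SE 1.10, edgeR adjusted p = 0.29), and -1.42 without replicate 3 (adjusted p = 0.0636). With zeros set to 1 below each library's smallest listed count it was -1.58 and passed (edgeR adjusted p = 0.0395). In that fit 22 of 591 IDs passed as lower and 28 as higher. It was the sole setting of those tried in which AS-tDR-001600 passed, with an adjusted p up to 0.517 in the others. AS-tDR-001597 was at 404, 343 and 0 CPM at 22 months and at 623, 588 and 583 CPM at 3 months. Its log2 difference was -1.25 (SE 1.15, edgeR adjusted p = 0.553), and -0.62 without replicate 3 (adjusted p = 0.135).

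The 3 IDs under Arg-CCT-3 and Arg-CCT-4 also differed among themselves. AS-tDR-010792 was at 1659, 1579 and 834 CPM at 22 months, against 1694, 1806 and 1353 CPM at 3 months, and the groups overlapped (log2 difference -0.25, SE 0.31, edgeR adjusted p = 0.665; 0.064 without 22 month replicate 3). AS-tDR-001613 was at 1214, 1200 and 1154 CPM at 22 months and at 1518, 1349 and 1603 CPM at 3 months. These groups did not overlap and the spread within each age was small, at 1189 ± 31.1 and 1490 ± 129 CPM (SD, n = 3 each), yet at a log2 difference of -0.33 (SE 0.17) the ID was not past the threshold (edgeR adjusted p = 0.276). AS-tDR-009398 was at 580, 661 and 0 CPM at 22 months and at 1231, 1502 and 1291 CPM at 3 months. Its log2 difference was -1.69 (SE 1.07, edgeR adjusted p = 0.376), and -1.04 without replicate 3 (adjusted p = 0.0567).

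**Figure D3:**
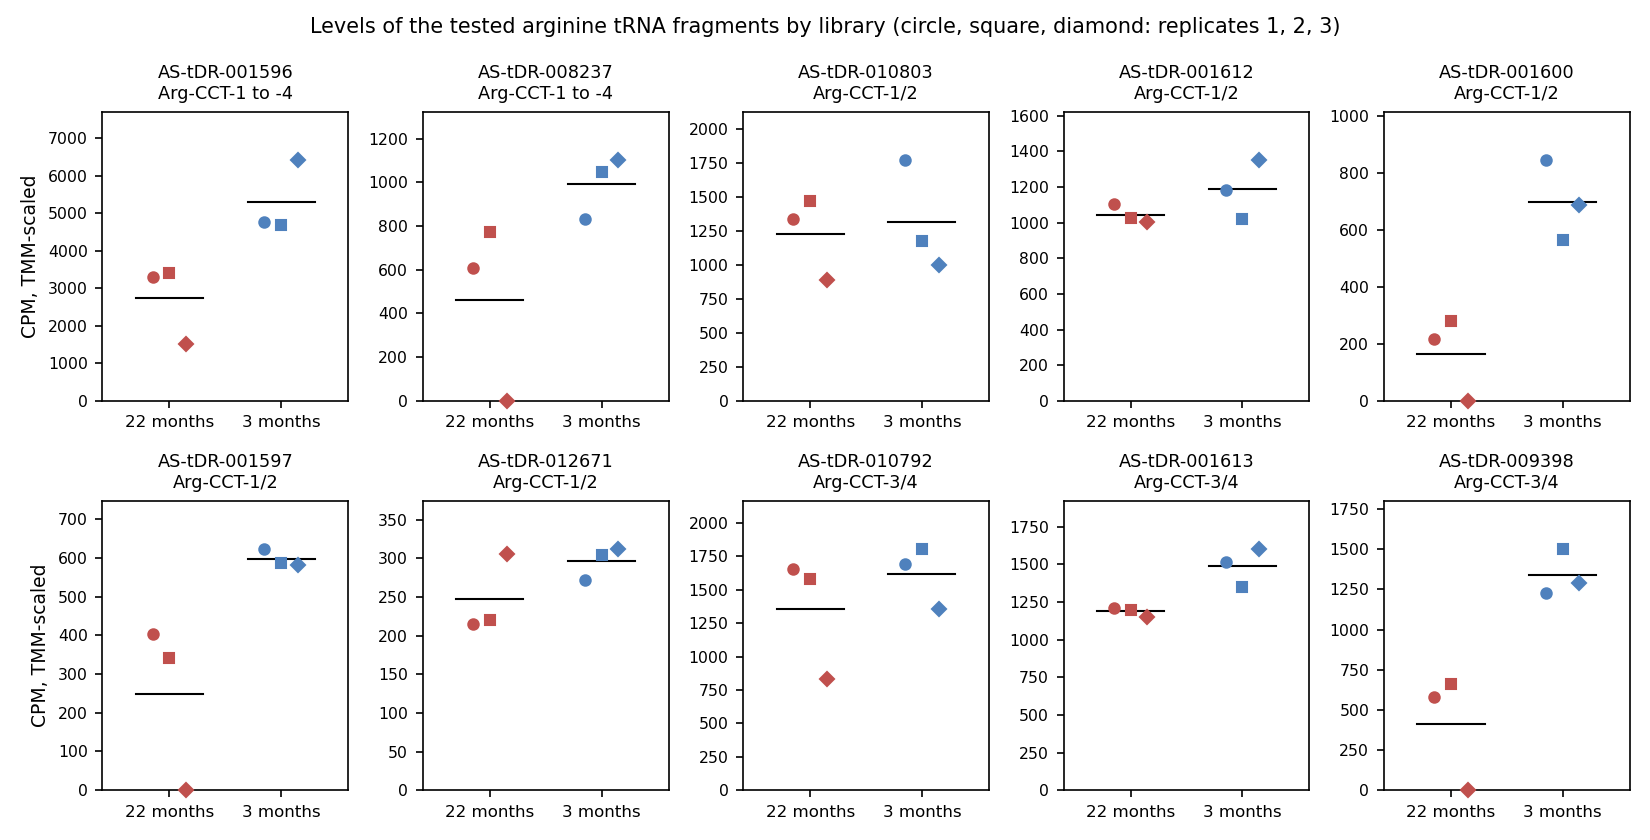
TMM-scaled CPM of the 10 tested members in each library, 22 months left and 3 months right, each with its own vertical axis from 0; bars are means. AS-tDR-001596, AS-tDR-008237, AS-tDR-001600, AS-tDR-001597, AS-tDR-001613 and AS-tDR-009398 have all 22 month points below the 3 month points, and 4 of them are listed at 0 in 22 month replicate 3.

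**Figure D4:**
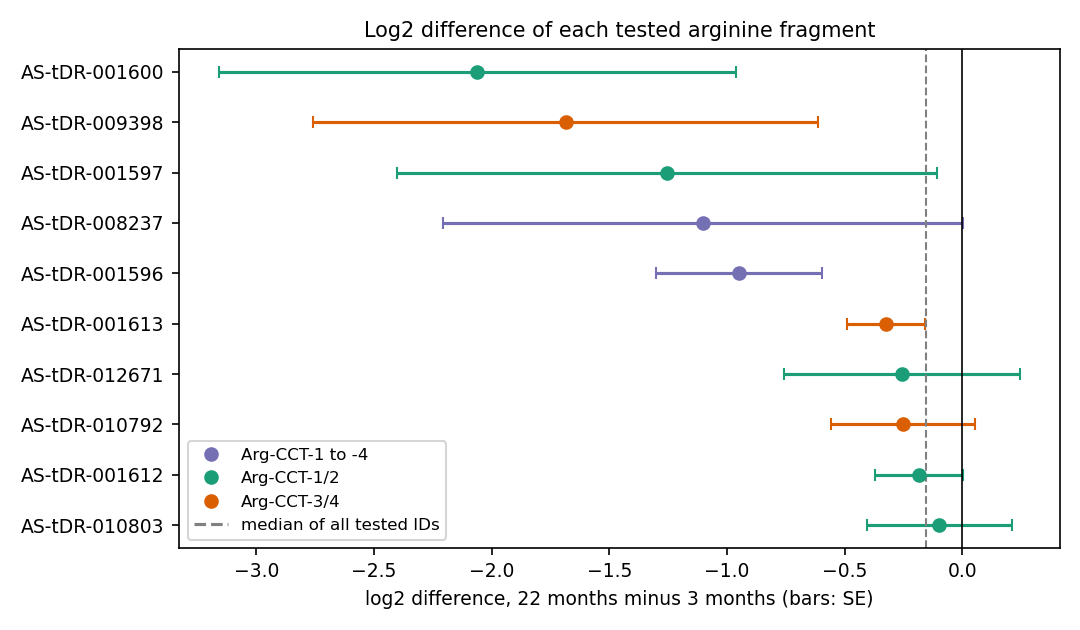
Log2 difference between 22 and 3 months of each tested member with its SE, coloured by parent set, with the median of all 439 tested IDs, -0.16, as a dashed line. The values run between -2.06 and -0.10, and the IDs under Arg-CCT-1 and Arg-CCT-2 alone span the whole of it.

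Fragments of the same parents had unlike values within a library. In 22 month replicate 3, AS-tDR-001612 and AS-tDR-001613 were at 1001 and 1154 CPM, close to their levels in the other 22 month libraries, while AS-tDR-001600, AS-tDR-001597 and AS-tDR-009398, under the same parent sets, were listed at 0. AS-tDR-001613, under Arg-CCT-3 and Arg-CCT-4, and AS-tDR-001612, under Arg-CCT-1 and Arg-CCT-2, were of like abundance, and whether they cover the same stretch of the tRNA is not known. The ratio of AS-tDR-001613 to AS-tDR-001612 tags was 1.10, 1.17 and 1.15 at 22 months and 1.28, 1.32 and 1.18 at 3 months. For AS-tDR-010792 and AS-tDR-010803 the ratio was 1.24, 1.08 and 0.938 at 22 months and 0.955, 1.54 and 1.35 at 3 months, and the ages overlapped. These pairs were chosen after their values were seen, and the ratios were not tested.

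The 5 members that were not tested were listed in 1 or 2 libraries each. Of the Arg-ACG members, AS-tDR-006438 had 22 tags in 22 month replicate 2 and 0 in the other libraries. AS-tDR-006937 had 0 at 22 months and 15, 0 and 18 tags in 3 month replicates 1, 2 and 3, and AS-tDR-007136 had 15 tags in 3 month replicate 1 only. AS-tDR-011750 of Arg-TCG had 13 tags in 22 month replicate 1 and 16 in 3 month replicate 3. AS-tDR-001576, of Arg-CCG and Arg-TCG, had 18 tags in 3 month replicate 1 only. The smallest listed counts were 13, 17 and 17 tags in 22 month replicates 1, 2 and 3 and 11, 8 and 9 tags in 3 month replicates 1, 2 and 3. With at most 22 tags in a library and values above 0 in only 1 or 2 libraries, these members did not pass the filter. AS-tDR-012671, also with at most 22 tags but above 0 in all 6 libraries, did.

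Tags were also summed per anticodon over all IDs that name 1 anticodon, precursor-only IDs included, and 42 sums were tested together. The Arg-CCT sum holds 10 IDs, all members. It was at 14430, 15050 and 8243 CPM at 22 months, against 21330, 17880 and 21010 CPM at 3 months (log2 difference -0.67, SE 0.27, edgeR adjusted p = 0.0972). Its 22 month libraries all lay below the 3 month libraries, as in 19.0% of the 42 sums tested. CPM of sums are scaled to the summed tags and are not comparable with those of single IDs. The Arg-ACG sum holds 10 IDs, of which 7 are precursor-only, so its 302 to 617 tags are mostly not of members. It was at 9399, 8969 and 6072 CPM at 22 months and at 14260, 11560 and 13940 CPM at 3 months (log2 difference -0.70, SE 0.23, edgeR adjusted p = 0.07). Neither sum passed, where 14.3% of all sums rose and 2.38% fell. Both passed as lower without 22 month replicate 1, at -0.97 for Arg-CCT (edgeR adjusted p = 0.0315) and -1.004 for Arg-ACG (adjusted p = 0.0194), in a fit in which 12 of 41 sums (29.3%) passed as lower. Without 22 month replicate 3 neither passed, at -0.45 for Arg-CCT (edgeR adjusted p = 0.0789) and -0.53 for Arg-ACG (adjusted p = 0.0582). The Arg-TCT sum is 1 precursor-only ID with 19, 0 and 0 tags at 22 months and 25, 8 and 0 at 3 months. It was tested and did not pass either (log2 difference -1.21, SE 1.68, edgeR adjusted p = 0.565). The Arg-TCG sum, of 2 IDs, was not tested.

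The 9 arginine IDs listed under precursors only comprise 7 of a single precursor, that of Arg-ACG-1-3, and 1 each of Arg-TCG and Arg-TCT. Together their share of listed tags was 0.546% ± 0.197 in the 22 month group and 1.04% ± 0.0899 in the 3 month group (SD, n = 3 each). Of the 8 tested, 0 rose and 0 fell, with 3 lower at an unadjusted p under 0.05, and all 8 log2 differences were negative (edgeR, median -0.77). Over all tested IDs, 4.78% rose and 1.82% fell, 9.79% were lower at an unadjusted p under 0.05, 57.4% were negative and the median was -0.16. The most abundant, AS-tDR-008900, averaged 2223 CPM at 22 months and 3922 CPM at 3 months (log2 difference -0.82, edgeR adjusted p = 0.0861). AS-tDR-011547 and AS-tDR-011546, the next most abundant, stood at log2 differences of -0.87 and -0.58, with edgeR adjusted p of 0.0796 and 0.375.

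Among 34 other anticodons above 0 in all 6 libraries, the sums whose levels ran most like the summed members were Gln-TTG, Gly-TCC and Val-TAC. The likeness is the mean absolute difference of log2 CPM over the 6 libraries after each profile is centred on its mean, and was 0.13 for Gln-TTG and 0.18 each for Gly-TCC and Val-TAC. The centred log2 level of the summed members was -0.11, -0.05 and -1.03 in 22 month replicates 1, 2 and 3, against 0.42, 0.27 and 0.50 at 3 months. That of Gln-TTG was 0.08, -0.07 and -0.83 at 22 months and 0.26, 0.17 and 0.40 at 3 months. Val-TAC was at -0.32, 0.10 and -1.13 at 22 months and at 0.24, 0.67 and 0.43 at 3 months. Gly-TCC was at 0.02, 0.29 and -0.94 at 22 months and at -0.06, 0.23 and 0.47 at 3 months, so its ages overlapped. In all of these profiles 22 month replicate 3 was the lowest library.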

How the data were processed

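Per the labels' protocols, Trizol extracts of total RNA were made into small RNA libraries and read on an Illumina NextSeq. FastQC, cutadapt and Novoalign, with the build mm10, are named in the submitters' processing notes. How tags were counted and which values were listed is not given in the sources used here. Per the file headers, the deposited values are counts of tags for each tDR ID. The title of the table calls them normalized, but they are whole numbers with unlike totals and were treated as raw counts. Counts repeat on each of 3257 lines of ID and parent, so each ID was used once, and all columns with values were used.

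All IDs were tested with edgeR 4.0.16 under R 4.3.3 (quasi-likelihood test, TMM scaling, filterByExpr at a count of 10, Benjamini-Hochberg adjustment), and likewise anticodon sums. The SE was derived from the log2 difference and the F statistic. DESeq2 1.42.0 and limma 3.58.1 (voom) were alternatives. Shared stretches were found by exact matching in Python 3.11.15, and plots drawn with matplotlib 3.10.9. Libraries of the same age were more unlike than sampling noise allows (chi-square over degrees of freedom, 6.60 to 59.7), and each was counted as 1 sample. Named were all members, and the 3 anticodons nearest in profile. The members, lists and tests were chosen with earlier results of these data known. Sums over IDs with a mature parent only were added after seeing the data.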

Additional observations from a re-analysis of the deposited data

How the results depend on the processing

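No member passed as higher in any of the 15 alternatives. With DESeq2 1 of 10 members passed as lower (AS-tDR-001596), as did 38 of 439 IDs. With each 0 raised to 1 under its library's lowest listed value, 1 of 15 members did (AS-tDR-001600), and 22 of 591 IDs. With a replicate block 0 passed and the median of the members was -0.67, beside -0.18 over all tested IDs. Deviations from the mean of each age correlated at -0.46, 0.03 and -0.35 for same-numbered libraries of unlike age. For the other pairs of unlike age they correlated at -0.08 to 0.44. Centring within an age constrains these correlations, so they cannot tell whether same-numbered libraries were paired. The median of the members, -0.64, lay between -1.01 and -0.41 with 1 library left out, where 10 to 12 members were tested. That of all tested IDs then lay between -0.20 and -0.01. It was -0.84 with library size only, -0.95 over all 15 with no filter and -0.28 over IDs above 0 in every library. The median of all tested IDs was -0.34 with library size only, -0.20 with no filter and -0.07 over IDs above 0 in every library. With zeros replaced the medians were -0.30 for the members and 0.07 for all IDs. With 1 library left out, AS-tDR-010792 lay between -0.37 and 0.064, AS-tDR-010803 between -0.26 and 0.18, the Arg-CCT sum between -0.97 and -0.45, the Arg-ACG sum between -1.004 and -0.53, and the Arg-TCT sum between -1.77 and 0.052. Between 0 and 2 of these sums then passed as lower. The cause was not tested. With the sums of all anticodons taken over IDs with a mature parent only, 39 sums were tested. The Arg-CCT sum, whose tags stay the same, was then -0.80 (edgeR adjusted p = 0.214). The Arg-ACG sum was -1.74 (edgeR adjusted p = 0.486), on 0, 22 and 0 tags at 22 months and 30, 0 and 18 at 3 months. With precursor-only IDs added, the arginine share was 1.40% at 22 months and 2.68% at 3 months. Over all IDs, 59 rose and 38 fell with DESeq2, against 21 and 8 with edgeR, and 0 with library size only, no filter, a replicate block or scaling to the lowest listed value. With DESeq2 size factors 29 rose and 15 fell, with voom 26 rose and 20 fell, with zeros replaced 28 rose and 22 fell, and over IDs above 0 in every library 38 rose and 27 fell. With 1 library left out, 0 to 9 rose and 0 to 7 fell. IDs at 0 in a library have no value over IDs above 0 in every library, and the Arg-TCT sum has none without 22 month replicate 1. Listing minimums, and not only depth, limit what can be seen.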
